A study of Mus musculus with 36 samples.

Results

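Cyclins and cyclin-dependent kinases (Cdks), the enzymes that cyclins activate, together carry a cell from growth into DNA synthesis. The members described here are the D cyclins *Ccnd1*, *Ccnd2* and *Ccnd3*, their kinases *Cdk4* and *Cdk6*, the E cyclins *Ccne1* and *Ccne2*, the kinase *Cdk2*, cyclin A2 (*Ccna2*) and *Rb1*, the gene of the retinoblastoma protein. They were chosen by gene symbol, as the rows of the count table whose Ensembl identifier maps to one of these symbols, and all 10 were found among 38887 identifiers. The study addressed the role of the interleukin-27 receptor (IL-27R, gene *Il27ra*) in bone marrow (BM) progenitors during infusion of angiotensin II (Ang II), a peptide hormone that raises blood pressure. The BM cells sequenced were long-term hematopoietic stem cells (LT-HSC), which carry CD150 and lack CD48, and HPC-1, their differentiated progeny with CD48 and without CD150, named ST-HSC in the labels; both were sorted from cells without lineage markers that carry Sca-1 and c-Kit. For each of the 36 libraries 5000 cells were sorted. Every mouse, controls included, lacked *Apoe* and was fed a Western diet, and the infusion of PBS or Ang II lasted 2 weeks. Mice with intact *Il27ra* are written *Apoe*-/- (WT in the labels), heterozygotes *Apoe*-/-*Il27ra*+/- and mice without the receptor *Apoe*-/-*Il27ra*-/-. In LT-HSC the PBS groups held 1 library of *Apoe*-/-, 3 of *Apoe*-/-*Il27ra*+/- and 3 of *Apoe*-/-*Il27ra*-/-, and the Ang II groups held 2 of *Apoe*-/-, 4 of *Apoe*-/-*Il27ra*+/- and 4 of *Apoe*-/-*Il27ra*-/-. In HPC-1 the PBS groups held 2 libraries of *Apoe*-/-, 3 of *Apoe*-/-*Il27ra*+/- and 3 of *Apoe*-/-*Il27ra*-/-, and the Ang II groups held 3 of *Apoe*-/-, 4 of *Apoe*-/-*Il27ra*+/- and 4 of *Apoe*-/-*Il27ra*-/-. The labels give no age, gender or batch. The study entered mouse gender as a factor in its own tests. The main models here could not, so the groups may differ in gender, and a covariate of Y-linked genes was used only as an alternative. The study's legends count 2 *Apoe*-/-, 4 *Apoe*-/-*Il27ra*+/- and 3 *Apoe*-/-*Il27ra*-/- mice. The Ang II groups of *Apoe*-/-*Il27ra*-/- in both cell types and of *Apoe*-/- in HPC-1 hold more libraries than that. Neither the study nor the labels say which library came from which mouse. The p-values here thus measure the spread between these libraries, part of which may be technical.

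As background, D cyclins are made in response to growth factors and activate *Cdk4* and *Cdk6*, which phosphorylate the retinoblastoma protein and so release E2F transcription factors. E2F factors then switch on the genes of DNA synthesis, the E cyclins and cyclin A2 among them, and *Cdk2* with these partners starts and sustains S phase. Most LT-HSC rest outside the cell cycle, whereas the multipotent progenitors that descend from them divide more often, and *Cdk6* is known for its part in the step from rest to division in blood progenitors.

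Levels are given in CPM, which sets each count against the total of its library, here scaled by the TMM method, and differences as log2 fold changes from edgeR's quasi-likelihood F-test with their standard error (SE). A gene was called when its p-value, adjusted by the Benjamini-Hochberg method over all genes tested, was under 0.05. The libraries held 1980283 to 6861078 counts (median 3139364), with a median of 2560838 in LT-HSC and 3254832 in HPC-1. All 10 members had counts in every library and passed the filter on low counts in each model. The lowest count of a member in any library was 4, for *Ccne1* in replicate 1 of Ang II *Apoe*-/- LT-HSC, and at such counts a level carries a large counting error.

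The labelled cell types were checked against marker genes. *Slamf1*, which encodes the sorting marker CD150, had a median of 44.0 CPM in LT-HSC and 1.91 CPM in HPC-1, and *Cd48* went the other way, at 0.486 against 62.0 CPM. All 10 genes of the LT-HSC list rose in LT-HSC against HPC-1, *Fgd5* by 3.01 (SE 0.225, adjusted p = 1.11e-10) and *Procr* by 3.10 (SE 0.281, adjusted p = 5.03e-10), each higher in 17 of 17 LT-HSC libraries than the HPC-1 median. Of the 6 HPC-1 markers 5 fell, among them *Satb1* (−3.70, SE 0.373, adjusted p = 2.02e-08) and *Cd34* (−2.28, SE 0.238, adjusted p = 3.51e-08), lower than the HPC-1 median in 16 and 17 of 17 LT-HSC libraries. *Slamf1* and *Cd48* follow from the sort itself. The summed level of the HPC-1 markers was 81.8 to 327 CPM in 15 LT-HSC libraries and 846 to 2320.1 CPM in the 19 HPC-1 libraries, so the labels matched the markers there.

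The other 2 LT-HSC libraries stood apart, and tests of the members that use them are given with and without them. In replicate 2 of PBS *Apoe*-/-*Il27ra*-/- LT-HSC the LT-HSC markers summed to 922 CPM and the HPC-1 markers to 1709 CPM, with *Cd48* at 62.6, *Slamf1* at 2.36 and *Flt3* at 435 CPM. Its markers went against its label, and it is called here the library labelled PBS *Apoe*-/-*Il27ra*-/- LT-HSC replicate 2. In replicate 2 of Ang II *Apoe*-/-*Il27ra*-/- LT-HSC the LT-HSC markers summed to 1558 CPM, the HPC-1 markers to 345 CPM and the granulocyte and monocyte markers to 8348 CPM, with *S100a9* most abundant at 2182 CPM and all 11 detected. The other 15 LT-HSC libraries had 30.6 to 1385 CPM of these granulocyte and monocyte markers (median 48.0), the highest in replicate 3 of PBS *Apoe*-/-*Il27ra*-/-. Over the members, the library labelled PBS *Apoe*-/-*Il27ra*-/- LT-HSC replicate 2 lay nearer to the HPC-1 mean than to the mean of the other LT-HSC libraries for 9 of 10 genes, all but *Ccne2*. Replicate 2 of Ang II *Apoe*-/-*Il27ra*-/- lay nearer to HPC-1 for 4 (*Ccnd2*, *Ccne1*, *Ccne2* and *Ccna2*), and the other LT-HSC libraries did so for 0 to 5.

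*Il27ra* served as the check of the genotype labels. Its level in LT-HSC was 6.94 to 19.3 CPM in *Apoe*-/-*Il27ra*-/-, 24.1 to 42.7 CPM in *Apoe*-/-*Il27ra*+/-, while Ang II *Apoe*-/- had 42.9 and 51.8 CPM, and these did not overlap between *Apoe*-/-*Il27ra*-/- and the others. The single library labelled PBS *Apoe*-/- LT-HSC, at 17.1 CPM, lay within the *Apoe*-/-*Il27ra*-/- range. In HPC-1 the genotypes overlapped, at 4.64 to 11.1 CPM in *Apoe*-/-*Il27ra*-/-, 5.46 to 16.5 in *Apoe*-/-*Il27ra*+/- and 6.07 to 11.9 in *Apoe*-/-, so there the level does not check the labels.

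The first question was how the members differ between stem cells and their more differentiated progeny. Of the 10 members, 9 were called between LT-HSC and HPC-1, with the D cyclins higher in LT-HSC and the kinases, the E cyclins and cyclin A2 lower. In this comparison 36.3% of the 18013 genes tested were called, 17.9% as higher and 18.4% as lower in LT-HSC, against 3 higher and 6 lower among the members. The median log2 fold change of the members was −0.53, beside 0.03 over all genes tested. Without both replicate 2 libraries of *Apoe*-/-*Il27ra*-/- LT-HSC, 38.3% of 17945 genes were called, the same 9 members were called in the same directions, and the members' median was −0.59 beside 0.02. These are bulk samples, in which fewer cells in a phase of the cycle and less RNA per cell cannot be told apart. Cells in G1, S and G2/M were not separated before sequencing.

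The D cyclins bind and activate *Cdk4* and *Cdk6*. *Ccnd1* encodes cyclin D1. Its level was 23.7 to 52.2 CPM (median 41.8) in the 17 LT-HSC libraries and 9.11 to 45.6 CPM (median 30.5) in the 19 HPC-1 libraries. The ranges overlapped widely, 5 LT-HSC libraries lay above every HPC-1 library, and the lowest level of all was in replicate 2 of PBS *Apoe*-/- HPC-1. The log2 fold change of *Ccnd1* was 0.41 (SE 0.147, adjusted p = 0.0261), higher than the HPC-1 median in 13 of 17 LT-HSC libraries, and 0.45 (SE 0.150, adjusted p = 0.0137) without both replicate 2 libraries (12 of 15). *Ccnd2* encodes cyclin D2. The 17 LT-HSC libraries had 229 to 501 CPM of *Ccnd2* (median 372) and the 19 HPC-1 libraries 194 to 344 CPM (median 275). Of the LT-HSC libraries 12 lay above every HPC-1 library, and the 1 below the HPC-1 median was replicate 1 of Ang II *Apoe*-/-*Il27ra*+/-. On the log2 scale *Ccnd2* differed by 0.42 (SE 0.0859, adjusted p = 0.000115), higher than the HPC-1 median in 16 of 17 LT-HSC libraries, and 0.49 (SE 0.0772, adjusted p = 1.01e-06) without both replicate 2 libraries (14 of 15). *Ccnd3* encodes cyclin D3. *Ccnd3* lay at 104 to 199 CPM in LT-HSC (n = 17, median 160.3) and at 42.6 to 121 CPM in HPC-1 (n = 19, median 98.5). Every LT-HSC library lay above the HPC-1 median and 14 lay above the whole HPC-1 range, while 11 HPC-1 libraries lay below every LT-HSC library. For *Ccnd3* the log2 fold change was 0.70 (SE 0.105, adjusted p = 7.96e-07), higher than the HPC-1 median in 17 of 17 LT-HSC libraries, and 0.71 (SE 0.103, adjusted p = 2.43e-07) without both replicate 2 libraries (15 of 15).

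*Cdk4* and *Cdk6* are the catalytic partners of the D cyclins. *Cdk4* encodes the kinase made in most cell types. Its level was 67.4 to 255 CPM (median 118) in the 17 LT-HSC libraries and 122 to 268 CPM (median 192) in the 19 HPC-1 libraries. The LT-HSC library at 255 CPM was the one labelled PBS *Apoe*-/-*Il27ra*-/- replicate 2, and without both replicate 2 libraries the highest was 149 CPM, with 16 of 19 HPC-1 libraries above it. The log2 fold change of *Cdk4* was −0.69 (SE 0.111, adjusted p = 4.39e-06), lower than the HPC-1 median in 16 of 17 LT-HSC libraries, and −0.77 (SE 0.1, adjusted p = 2.39e-08) without both replicate 2 libraries (15 of 15). *Cdk6* encodes the kinase that is prominent in blood cells, and it had the lowest adjusted p of the members. The 17 LT-HSC libraries had 167 to 615 CPM of *Cdk6* (median 268) and the 19 HPC-1 libraries 493 to 707 CPM (median 578). The cell types separated except for the library labelled PBS *Apoe*-/-*Il27ra*-/- replicate 2 at 615 CPM: the other 16 LT-HSC libraries lay at or below 436 CPM and every HPC-1 library at or above 493 CPM. On the log2 scale *Cdk6* differed by −1.11 (SE 0.132, adjusted p = 8.04e-08), lower than the HPC-1 median in 16 of 17 LT-HSC libraries, and −1.31 (SE 0.0826, adjusted p = 5.16e-17) without both replicate 2 libraries (15 of 15).

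*Cdk6* was therefore followed library by library. In LT-HSC after PBS it was at 305 CPM in the library labelled *Apoe*-/-, 337, 236 and 198 (*Apoe*-/-*Il27ra*+/-) and 167, 615 and 193 CPM (replicates 1 to 3 of *Apoe*-/-*Il27ra*-/-). In LT-HSC after Ang II it was at 268 and 319 (*Apoe*-/-), 436, 251, 277 and 280.4 (*Apoe*-/-*Il27ra*+/-) and 202, 275, 169 and 191 CPM (*Apoe*-/-*Il27ra*-/-). The *Apoe*-/-*Il27ra*-/- libraries other than replicate 2 were at the low end of LT-HSC after both infusions, together with replicate 3 of PBS *Apoe*-/-*Il27ra*+/-, and replicate 1 of Ang II *Apoe*-/-*Il27ra*+/- was the highest of the rest. In HPC-1 after PBS *Cdk6* was at 573 and 507 (*Apoe*-/-), 636, 569 and 568 (*Apoe*-/-*Il27ra*+/-) and 602, 578 and 591 CPM (*Apoe*-/-*Il27ra*-/-). In HPC-1 after Ang II it was at 652, 593 and 612 (*Apoe*-/-), 538, 493, 632 and 662 (*Apoe*-/-*Il27ra*+/-) and 557, 707, 535 and 577 CPM (*Apoe*-/-*Il27ra*-/-). Most HPC-1 groups overlapped one another, but both PBS *Apoe*-/- libraries lay below every library of PBS *Apoe*-/-*Il27ra*-/- and of Ang II *Apoe*-/-.

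**Figure D1:**
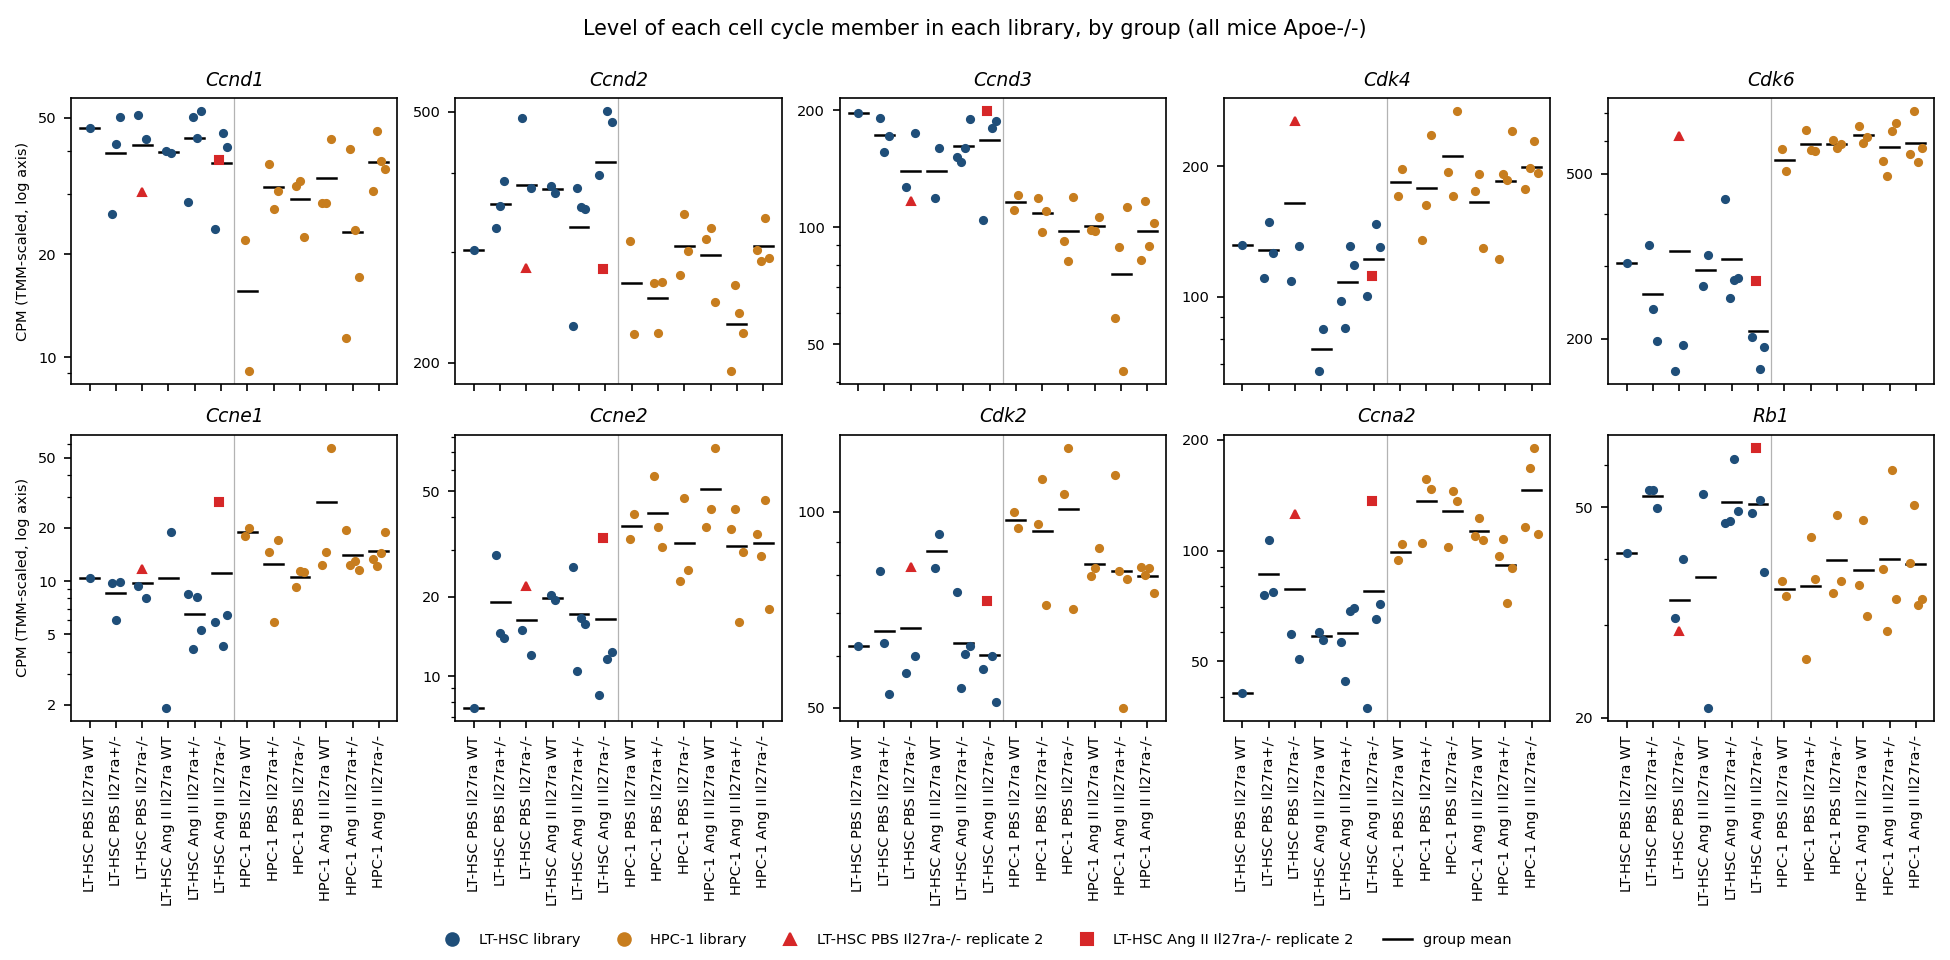
Level of each member (CPM, log axis) in every library by group, with points for libraries and short lines for group means; the red triangle and square are the replicate 2 libraries of *Apoe*-/-*Il27ra*-/- LT-HSC. *Cdk6* lies at 493 to 707 CPM in HPC-1 and at 167 to 436 CPM in the 15 other LT-HSC libraries.

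The E cyclins switch *Cdk2* on at the start of DNA synthesis. *Ccne1* encodes cyclin E1. *Ccne1* lay at 1.93 to 28.1 CPM in LT-HSC (n = 17, median 8.18) and at 5.85 to 56.8 CPM in HPC-1 (n = 19, median 13.3). The ranges overlapped, with 4 of 17 LT-HSC libraries below every HPC-1 library and 1 HPC-1 library above every LT-HSC library (4 without both replicate 2 libraries), and with replicate 2 of Ang II *Apoe*-/-*Il27ra*-/- highest in LT-HSC and replicate 3 of Ang II *Apoe*-/-, at 56.8 CPM, far above the other HPC-1 libraries. For *Ccne1* the log2 fold change was −0.73 (SE 0.262, adjusted p = 0.0254), lower than the HPC-1 median in 15 of 17 LT-HSC libraries, and −0.95 (SE 0.246, adjusted p = 0.00161) without both replicate 2 libraries (14 of 15). Its call rested on single libraries: the log2 fold change was −0.52 (adjusted p = 0.102) without replicate 3 of Ang II *Apoe*-/- HPC-1, and the adjusted p was 0.102 without replicate 1 of Ang II *Apoe*-/- LT-HSC, 0.0697 without replicate 1 of PBS *Apoe*-/-*Il27ra*+/- HPC-1 and 0.0659 without replicate 3 of that group. The difference grew to −1.21 (adjusted p = 0.00116) without replicate 2 of Ang II *Apoe*-/- LT-HSC. *Ccne2* encodes cyclin E2. Its level was 7.61 to 33.2 CPM (median 15.0) in the 17 LT-HSC libraries and 16.1 to 72.8 CPM (median 35.9) in the 19 HPC-1 libraries. Every LT-HSC library lay below the HPC-1 median, 10 lay below the whole HPC-1 range, and 11 HPC-1 libraries lay above every LT-HSC library. The log2 fold change of *Ccne2* was −1.06 (SE 0.189, adjusted p = 2.21e-05), lower than the HPC-1 median in 17 of 17 LT-HSC libraries, and −1.22 (SE 0.174, adjusted p = 1.61e-07) without both replicate 2 libraries (15 of 15). *Cdk2* is the kinase of the E and A cyclins. The 17 LT-HSC libraries had 50.9 to 92.6 CPM of *Cdk2* (median 62.1) and the 19 HPC-1 libraries 50.0 to 126 CPM (median 82.1). No LT-HSC library lay outside the HPC-1 range, and the LT-HSC libraries above the HPC-1 median were replicate 2 of Ang II *Apoe*-/- and the library labelled PBS *Apoe*-/-*Il27ra*-/- replicate 2. On the log2 scale *Cdk2* differed by −0.36 (SE 0.101, adjusted p = 0.00359), lower than the HPC-1 median in 15 of 17 LT-HSC libraries, and −0.42 (SE 0.101, adjusted p = 0.00073) without both replicate 2 libraries (14 of 15).

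*Ccna2* encodes cyclin A2, which works with *Cdk2* in S phase and is made mainly in cycling cells. *Ccna2* lay at 37.4 to 136 CPM in LT-HSC (n = 17, median 65.0) and at 72.1 to 190.4 CPM in HPC-1 (n = 19, median 109.9). The highest LT-HSC levels were both replicate 2 libraries of *Apoe*-/-*Il27ra*-/-, at 136 CPM after Ang II and 126 CPM in the one labelled PBS, and 12 LT-HSC libraries lay below every HPC-1 library. For *Ccna2* the log2 fold change was −0.77 (SE 0.139, adjusted p = 3.8e-05), lower than the HPC-1 median in 15 of 17 LT-HSC libraries, and −0.95 (SE 0.104, adjusted p = 4.03e-10) without both replicate 2 libraries (15 of 15). Library by library, *Ccna2* in LT-HSC was at 40.9 CPM in the library labelled PBS *Apoe*-/-, 75.8, 106 and 76.9 (PBS *Apoe*-/-*Il27ra*+/-) and 59.1, 126 and 50.6 CPM (PBS *Apoe*-/-*Il27ra*-/-). After Ang II it was at 60.2 and 57.2 (*Apoe*-/-), 56.6, 44.2, 68.4 and 69.8 (*Apoe*-/-*Il27ra*+/-) and 37.4, 136, 65.0 and 71.6 CPM (*Apoe*-/-*Il27ra*-/-). The genotypes overlapped after Ang II. After PBS the library labelled *Apoe*-/- lay below all others, and *Apoe*-/-*Il27ra*-/- overlapped *Apoe*-/-*Il27ra*+/- only through the library labelled replicate 2.

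*Rb1* encodes the retinoblastoma protein, the substrate of *Cdk4* and *Cdk6* that holds E2F factors in check. In the 17 LT-HSC libraries its level ranged from 20.9 to 64.7 CPM (median 48.8), and in the 19 HPC-1 libraries from 25.8 to 58.6 CPM (median 36.2). The ranges overlapped, with 2 LT-HSC libraries above and 1 below the whole HPC-1 range. The log2 fold change was 0.20 (SE 0.122, adjusted p = 0.211), positive in 14 of 17 LT-HSC libraries against the HPC-1 median, and 0.20 (SE 0.125, adjusted p = 0.231) without both replicate 2 libraries (13 of 15). *Rb1* was the only member not called, and leaving out replicate 2 of Ang II *Apoe*-/- LT-HSC, the library at 20.9 CPM, brought it past the threshold at 0.31 (adjusted p = 0.0382), whereas leaving out replicate 1 of that group brought it down to 0.04 (adjusted p = 0.975).

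Within the 5 conditions that had 2 or more LT-HSC libraries, the difference between the cell types was computed from the same model. *Cdk6* was lower in LT-HSC in all 5, at −1.51 to −0.86 on the log2 scale, and at −1.69 to −0.90 without both replicate 2 libraries. Leaving these out moved *Cdk6* in PBS *Apoe*-/-*Il27ra*-/- from −0.86 (SE 0.297), the smallest difference of the 5, to −1.69 (SE 0.209), the largest. For *Ccne2* the differences were −1.35 to −0.86, for *Ccna2* −0.95 to −0.61, for *Cdk4* −1.13 to −0.35 and for *Ccne1* −1.41 to −0.13, all negative. They were, without both replicate 2 libraries, −1.53 to −0.86 (*Ccne2*), −1.33 to −0.60 (*Ccna2*), −1.13 to −0.46 (*Cdk4*) and −1.41 to −0.27 (*Ccne1*), again all negative. In PBS *Apoe*-/-*Il27ra*-/- *Cdk4* moved from −0.35 (SE 0.250) to −0.79 (SE 0.246) and *Ccna2* from −0.70 (SE 0.313) to −1.20 (SE 0.260). In Ang II *Apoe*-/-*Il27ra*-/- *Ccne1* moved from −0.45 (SE 0.512) to −1.41 (SE 0.513) and *Ccne2* from −0.97 (SE 0.373) to −1.53 (SE 0.361). *Ccnd3* was higher in LT-HSC in all 5 conditions, at 0.47 to 1.09, and *Ccnd2* at 0.32 to 0.51, and so they were without both replicate 2 libraries, at 0.46 to 1.09 and 0.34 to 0.58. Other members changed sign: *Ccnd1* was at −0.01 (SE 0.290) in Ang II *Apoe*-/-*Il27ra*-/-, a log2 difference of −0.02 (SE 0.306) there without both replicate 2 libraries, and 0.93 (SE 0.298) in Ang II *Apoe*-/-*Il27ra*+/-. *Cdk2* was at 0.07 (SE 0.259) in Ang II *Apoe*-/- and negative in the other 4 conditions, in all from −0.60 to 0.07 and, without both replicate 2 libraries, from −0.77 to 0.06. *Rb1* was at −0.25 (SE 0.278) in PBS *Apoe*-/-*Il27ra*-/-, at −0.13 (SE 0.309) there without both replicate 2 libraries, and 0.56 (SE 0.279) in PBS *Apoe*-/-*Il27ra*+/-. Whether these differences differ among conditions was not tested.

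**Figure D2:**
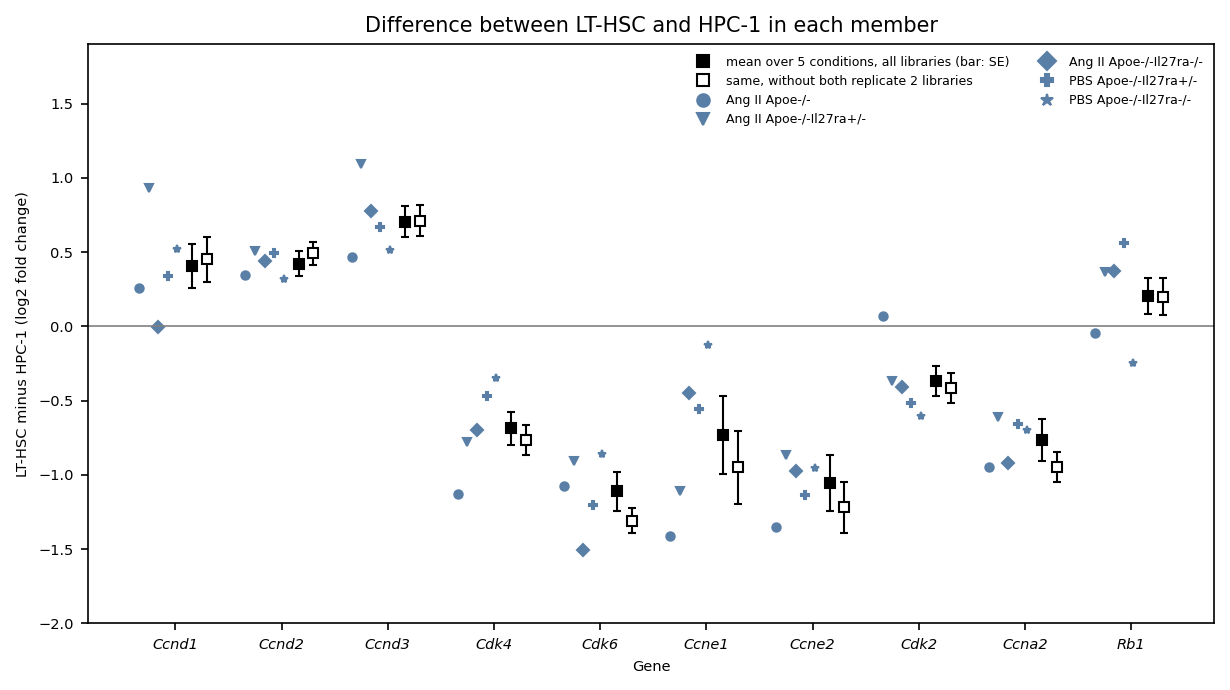
Log2 fold change of each member in LT-HSC against HPC-1 (black squares, with SE as bars) over all libraries, the same without both replicate 2 libraries of *Apoe*-/-*Il27ra*-/- LT-HSC (open squares), and the value in each of 5 conditions (blue marks). The D cyclins lie above 0, from 0.41 to 0.70 over all libraries, and *Cdk6* lies lowest at −1.11.

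The groups were then ordered by their mean level, over the 11 groups with 2 or more libraries. For *Cdk6* the order from the lowest, as mean ± SD, began with 209 ± 46.2 CPM in LT-HSC Ang II *Apoe*-/-*Il27ra*-/- (n = 4), 257 ± 71.8 CPM in LT-HSC PBS *Apoe*-/-*Il27ra*+/- (n = 3), 293 ± 36.3 CPM in LT-HSC Ang II *Apoe*-/- (n = 2), 311 ± 84.0 CPM in LT-HSC Ang II *Apoe*-/-*Il27ra*+/- (n = 4) and 325 ± 251 CPM in LT-HSC PBS *Apoe*-/-*Il27ra*-/- (n = 3), the last with replicate 2 at 615 CPM. It went on in HPC-1 with 540.1 ± 46.8 CPM in HPC-1 PBS *Apoe*-/- (n = 2), 581 ± 79.0 CPM in HPC-1 Ang II *Apoe*-/-*Il27ra*+/- (n = 4), 590.2 ± 12 CPM in HPC-1 PBS *Apoe*-/-*Il27ra*-/- (n = 3) and 591 ± 39.0 CPM in HPC-1 PBS *Apoe*-/-*Il27ra*+/- (n = 3), and ended with 594 ± 77.3 CPM in HPC-1 Ang II *Apoe*-/-*Il27ra*-/- (n = 4) and 619 ± 30.1 CPM in HPC-1 Ang II *Apoe*-/- (n = 3). All LT-HSC groups came before all HPC-1 groups. Neighbours in this order did not differ beyond their spread, since mean ± SD overlapped in all 10 steps for each member. When both replicate 2 libraries were left out the order of *Cdk6* began with PBS *Apoe*-/-*Il27ra*-/- LT-HSC, at 180.2 ± 18.5 CPM (SD, n = 2), and Ang II *Apoe*-/-*Il27ra*-/- LT-HSC, at 187 ± 16.8 CPM (SD, n = 3), the other groups kept their order, and the step from LT-HSC to HPC-1 was then wider than mean ± SD; it was the 1 such step among the members. For *Ccnd2* the means ran from 231 ± 30.3 CPM (SD, n = 4) for Ang II *Apoe*-/-*Il27ra*+/- HPC-1 to 416 ± 99.9 CPM (SD, n = 4) for Ang II *Apoe*-/-*Il27ra*-/- LT-HSC, with the LT-HSC groups last. For *Ccnd3* they ran from 75.7 ± 31.5 CPM (SD, n = 4) for Ang II *Apoe*-/-*Il27ra*+/- HPC-1 to 173 ± 17.5 CPM (SD, n = 3) for PBS *Apoe*-/-*Il27ra*+/- LT-HSC, again with the LT-HSC groups last. *Ccnd1* ran from 15.6 ± 9.14 CPM (SD, n = 2) for PBS *Apoe*-/- HPC-1 to 43.6 ± 10.8 CPM (SD, n = 4) for Ang II *Apoe*-/-*Il27ra*+/- LT-HSC, with the cell types interleaved. *Cdk4* ran from 75.8 ± 11.8 CPM (SD, n = 2) for Ang II *Apoe*-/- LT-HSC to 210.5 ± 50.7 CPM (SD, n = 3) for PBS *Apoe*-/-*Il27ra*-/- HPC-1, and the LT-HSC groups came first. *Ccne1* ran from 6.52 ± 2.15 CPM (SD, n = 4) for Ang II *Apoe*-/-*Il27ra*+/- LT-HSC to 27.9 ± 25.1 CPM (SD, n = 3) for Ang II *Apoe*-/- HPC-1, the group with the library at 56.8 CPM. *Ccne2* ran from 16.3 ± 5.03 CPM (SD, n = 3) for PBS *Apoe*-/-*Il27ra*-/- LT-HSC to 50.7 ± 19.4 CPM (SD, n = 3) for Ang II *Apoe*-/- HPC-1, with all LT-HSC groups first. *Cdk2* ran from 60.3 ± 9.24 CPM (SD, n = 4) for Ang II *Apoe*-/-*Il27ra*-/- LT-HSC to 101 ± 27.8 CPM (SD, n = 3) for PBS *Apoe*-/-*Il27ra*-/- HPC-1. *Ccna2* ran from 58.7 ± 2.09 CPM (SD, n = 2) for Ang II *Apoe*-/- LT-HSC to 146 ± 39.1 CPM (SD, n = 4) for Ang II *Apoe*-/-*Il27ra*-/- HPC-1, and the LT-HSC groups came first. *Rb1* had both its lowest and its highest mean in LT-HSC after PBS, 33.4 ± 5.81 CPM (SD, n = 3) for *Apoe*-/-*Il27ra*-/- and 52.5 ± 2.39 CPM (SD, n = 3) for *Apoe*-/-*Il27ra*+/-. With both replicate 2 libraries left out the lowest group became Ang II *Apoe*-/-*Il27ra*-/- LT-HSC for *Ccne1*, at 5.56 ± 1.13 CPM (SD, n = 3), and for *Ccne2*, at 10.9 ± 2.06 CPM (SD, n = 3), PBS *Apoe*-/-*Il27ra*-/- LT-HSC for *Ccna2*, at 54.9 ± 6.02 CPM (SD, n = 2), and PBS *Apoe*-/- HPC-1 for *Rb1*, at 35.1 ± 1.56 CPM (SD, n = 2); the highest became PBS *Apoe*-/-*Il27ra*-/- LT-HSC for *Ccnd1*, at 47.1 ± 5.43 CPM (SD, n = 2), and, apart from the lowest of *Cdk6*, the other ends kept their groups.

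Levels of different genes were compared per kilobase of exon (CPM per kb), since longer transcripts give more counts. The length was that of all annotated exons of a gene merged, from 2662 bases for *Ccne1* to 13989 for *Cdk6*. It can exceed that of the transcripts made in these cells, so the order of genes and the shares below depend on this choice. Among the D cyclins *Ccnd2* had the highest median, 39.5 in LT-HSC and 29.3 in HPC-1, followed by *Ccnd3* (18.3 in LT-HSC and 11.2 in HPC-1) and *Ccnd1* (8.88 in LT-HSC and 6.48 in HPC-1). *Ccnd2* made up a median of 58.6% in LT-HSC and 63.0% in HPC-1 of the D cyclin sum per kb, and *Ccnd3* 27.6% in LT-HSC and 23.3% in HPC-1. Per kb, *Cdk4* had the highest median of all members in HPC-1, at 36.4 in LT-HSC and 59.0 in HPC-1, and *Cdk6* had 19.1 in LT-HSC and 41.3 in HPC-1. The share of *Cdk6* in the sum of both kinases was 35.0% in LT-HSC and 42.2% in HPC-1, so *Cdk4* was the larger part of the median per kb in both cell types; over single libraries the share of *Cdk6* reached 50.9% and 52.3%. *Ccne1* had 3.07 in LT-HSC and 4.98 in HPC-1, and *Ccne2* had 4.29 in LT-HSC and 10.3 in HPC-1 and made up 59.3% in LT-HSC and 65.4% in HPC-1 of the E cyclin sum. *Cdk2* stood at 9.99 in LT-HSC and 13.2 in HPC-1, *Ccna2* at 15.9 in LT-HSC and 26.9 in HPC-1 and *Rb1* at 8.12 in LT-HSC and 6.02 in HPC-1. The E cyclins were the lowest of the members in LT-HSC.

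Other genes of the pathway were taken from lists by role, read beside 0.03 as the median of all genes tested, of which 17.9% were called as higher and 18.4% as lower in LT-HSC. Of 18 E2F target genes, which act in DNA synthesis and mitosis, 17 fell in LT-HSC against HPC-1 and 0 rose, with a median log2 fold change of −0.79. *Cdc6*, which loads the replicative helicase, was at 27.5 against 69.8 CPM (medians of LT-HSC and HPC-1) and fell in LT-HSC, at −1.11 (SE 0.127, adjusted p = 4.32e-09), lower than the HPC-1 median in 17 of 17 libraries. The helicase subunit *Mcm4* was at 145 against 265 CPM, and fell by 0.80 (SE 0.0992, adjusted p = 2.31e-08) with 17 of 17 below. *Mcm6* (−0.78, SE 0.1, adjusted p = 7.04e-08, 16 of 17) and *Mcm2* (−0.75, SE 0.102, adjusted p = 1.91e-07, 17 of 17) did likewise. *Tk1* was the 1 not called, and without both replicate 2 libraries all 18 fell. *Mki67* was the most abundant of the list in every library.

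Among 12 partners of RB and E2F, 2 rose, 4 fell and 6 were not called (median −0.19), beside those 17.9% and 18.4% of all genes. *Rbl2*, a relative of *Rb1* known from resting cells, was at 171 against 122 CPM and rose, a log2 difference of 0.38 (SE 0.0767, adjusted p = 9.2e-05), in 17 of 17 LT-HSC libraries above the HPC-1 median, and *Tfdp2*, a dimer partner of E2F, rose by 0.35 (SE 0.0844, adjusted p = 0.000968) with 17 of 17 above. *Rbl1*, the relative of *Rb1* made in cycling cells, was at 113 against 162 CPM and fell, a log2 difference of −0.48 (SE 0.0910, adjusted p = 4.18e-05), with 16 of 17 below. *E2f8* (−0.71, SE 0.153, adjusted p = 0.000436, 17 of 17), *Tfdp1* (−0.48, SE 0.110, adjusted p = 0.000486, 17 of 17) and *E2f1* (−0.54, SE 0.131, adjusted p = 0.00106, 16 of 17) fell too. The *Rb1* relatives thus moved in opposite directions. Without both replicate 2 libraries 2 rose and 5 fell.

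The mitotic cyclins and *Cdk1* drive the step into mitosis. All 4 that were tested fell (median −0.66), *Ccnb1* from 60.8 CPM in HPC-1 to 34.2 CPM in LT-HSC as medians, a log2 difference of −0.79 (SE 0.168, adjusted p = 0.00027) with 14 of 17 below, and *Cdk1*, the kinase of mitosis, at −0.91 (SE 0.203, adjusted p = 0.000635) with 15 of 17 below. *Ccnb2* was at −0.52 (SE 0.128, adjusted p = 0.00106) and *Ccnf* at −0.53 (SE 0.209, adjusted p = 0.0465), each with 14 of 17 below. *Ccna1*, the cyclin of germ cells, was not tested and was at 0 counts in 14 of 17 LT-HSC and all 19 HPC-1 libraries. Of 13 genes that activate or destroy cyclin-Cdk complexes, 7 fell and 0 rose (median −0.38), and 8 fell without both replicate 2 libraries. *Cks2* was at 22.3 against 49.1 CPM, a log2 difference of −1.17 (SE 0.16, adjusted p = 1.75e-07), and *Cks1b*, also a small subunit that binds Cdks, at 14.4 against 30.5 CPM, a log2 difference of −1.09 (SE 0.178, adjusted p = 4.07e-06). *Pkmyt1* (−1.10, SE 0.179, adjusted p = 3.91e-06), a kinase that holds *Cdk1* inactive, and *Cdc25a* (−0.59, SE 0.122, adjusted p = 0.000138), a phosphatase that activates *Cdk2*, fell as well. *Cks2*, *Cks1b* and *Pkmyt1* were below the HPC-1 median in 16 of 17 libraries and *Cdc25a* in 15. By condition *Cks2* was at −2.46 in Ang II *Apoe*-/- and at −1.18 to −0.28 in the other 4, which became −1.46 to −0.79 without both replicate 2 libraries.

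The Cdk inhibitors did not move one way, with 2 up and 2 down of 6 tested (median 0.33). That median includes *Cdkn2b*, at a median of 0 CPM in both cell types, whose value of 0.97 (SE 1985) carries no information. *Cdkn1c*, which encodes p57 and is known from quiescent stem cells, was at 17.1 against 0.814 CPM and rose by 3.07 (SE 0.496, adjusted p = 1.03e-05), in 16 of 17 libraries above the HPC-1 median. *Cdkn1a*, which encodes p21, was at 1.72 against 6.98 CPM and fell, a log2 difference of −2.02 (SE 0.370, adjusted p = 2.65e-05), with 16 of 17 below. *Cdkn2d* rose, a log2 difference of 0.65 (SE 0.193, adjusted p = 0.00719), with 16 of 17 above, and *Cdkn2c* fell, a log2 difference of −0.65 (SE 0.168, adjusted p = 0.00204), with 16 of 17 below; both encode inhibitors of *Cdk4* and *Cdk6*. *Cdkn1b* was the most abundant inhibitor by CPM in all 36 libraries and was not called, and *Cdkn2a* was at 0 counts in 16 LT-HSC and 18 HPC-1 libraries. Of 24 transcriptional and other cyclins and Cdks, 3 rose, 8 fell and 13 were not called (median −0.05). *Cdk18* (1.70, SE 0.189, adjusted p = 2.47e-09, 16 of 17 above), *Cdk14* (1.24, SE 0.206, adjusted p = 5.52e-06, 16 of 17) and *Cdk17* (0.51, SE 0.105, adjusted p = 0.000155, 17 of 17) rose. *Cdk19*, a kinase of the Mediator complex, fell by 0.61 (SE 0.0779, adjusted p = 5.14e-08), and *Ccng2*, an unconventional cyclin known from resting cells, fell by 1.03 (SE 0.151, adjusted p = 6.65e-07), each with 16 of 17 below. Much of the mean for *Ccng2* came from Ang II *Apoe*-/-, at −2.73 (SE 0.456), beside −0.98 to −0.33 in the other 4 conditions (−0.96 to −0.47 without both replicate 2 libraries). *Ccnt1* (−0.27, SE 0.0760, adjusted p = 0.00478, 17 of 17) and *Cdk11b* (−0.32, SE 0.101, adjusted p = 0.0114, 14 of 17) fell too. In Ang II *Apoe*-/- alone *Cdk11b* had the opposite sign, at 0.36 (SE 0.257), beside −0.73 to −0.25 in the other 4 (−0.71 to −0.38 without both replicate 2 libraries).

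Summed over a list, the levels show the libraries side by side. The E2F targets summed to 2725 to 7077 CPM (median 3635) in LT-HSC and 5635 to 9138 CPM (median 7387) in HPC-1, and without both replicate 2 libraries the highest LT-HSC sum was 4877 CPM, below every HPC-1 library. The LT-HSC library at 7077 CPM was replicate 2 of Ang II *Apoe*-/-*Il27ra*-/-, and the one labelled PBS *Apoe*-/-*Il27ra*-/- replicate 2 had 6595 CPM. The members summed to 986 to 1570.5 CPM (median 1180.4) in LT-HSC and 1228 to 1696 CPM (median 1492) in HPC-1, with 4 LT-HSC libraries above the lowest HPC-1 library, the highest of them the one labelled PBS *Apoe*-/-*Il27ra*-/- replicate 2. The members summed to at most 1241 CPM in LT-HSC without both replicate 2 libraries, still with overlap. The mitotic list summed to 67.7 to 280.5 CPM (median 125) in LT-HSC and 165 to 354 CPM (median 219) in HPC-1, and the activators to 314 to 600.2 CPM (median 407) in LT-HSC and 482 to 648 CPM (median 553) in HPC-1. Their highest LT-HSC sums without both replicate 2 libraries were 222 CPM (mitotic list) and 464 CPM (activators), the latter below every HPC-1 library. By contrast the inhibitors summed to 91.0 to 148 CPM (median 126) in LT-HSC and 82.3 to 147 CPM (median 115) in HPC-1, with overlap. The sums also overlapped for the transcriptional and other cyclins and Cdks, at 1827 to 2235 CPM (median 2138) in LT-HSC and 1964 to 2428 CPM (median 2167) in HPC-1, and for the RB and E2F partners the sums were 757 to 1139.8 CPM (median 899.9) in LT-HSC and 851 to 1207 CPM (median 1049) in HPC-1.

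**Figure D3:**
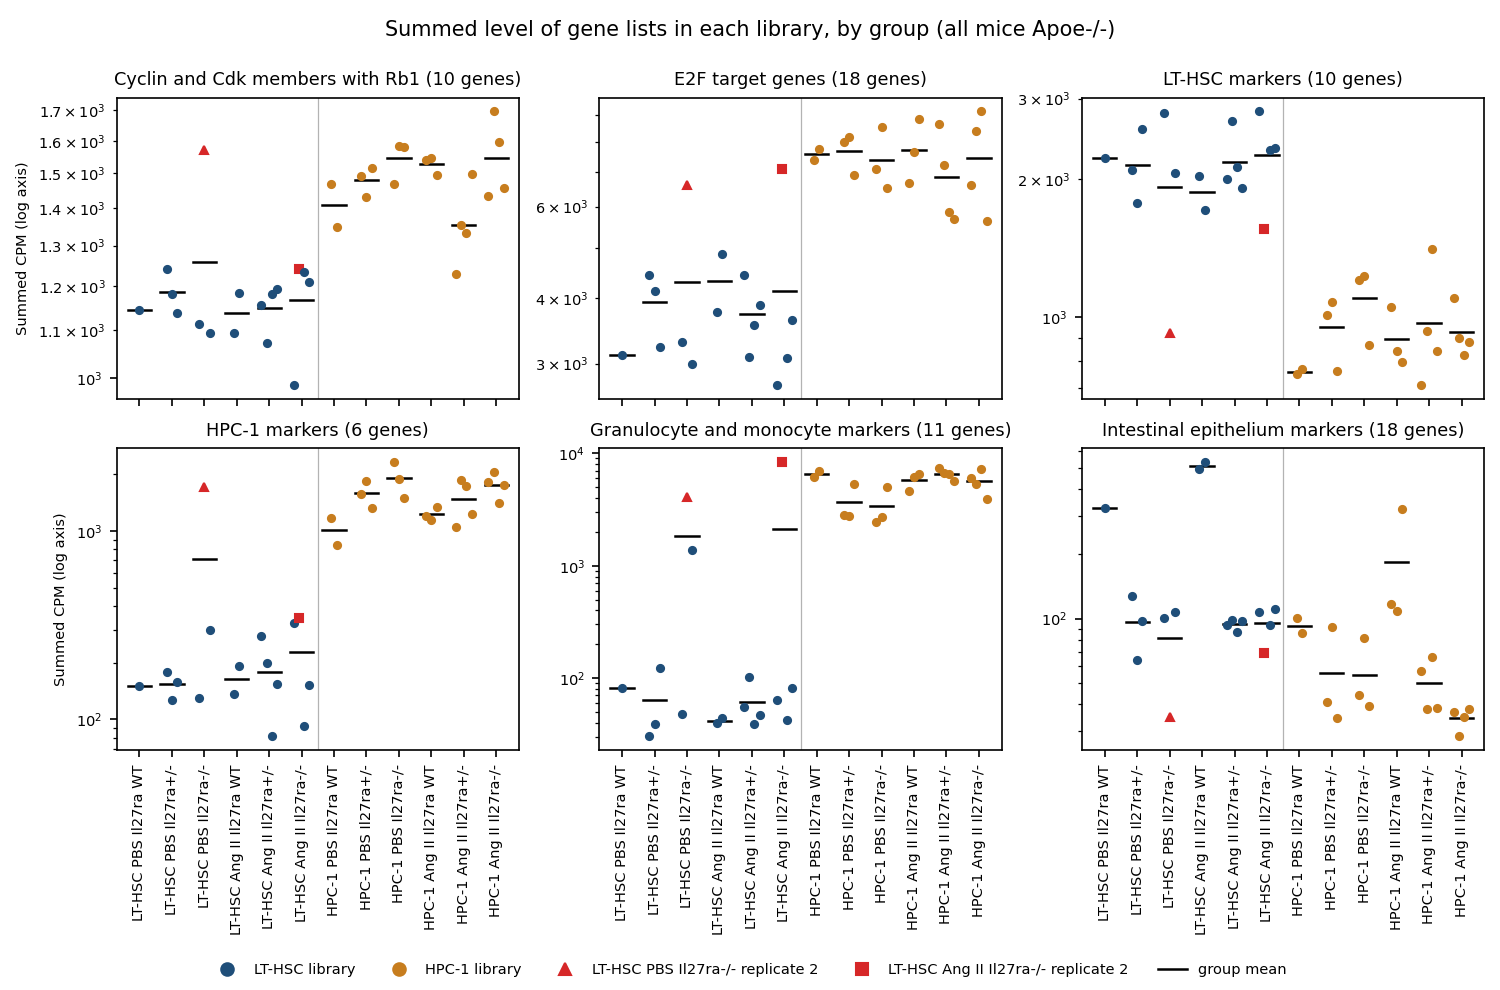
Summed level (CPM, log axis) of 6 gene lists by group; points are libraries, short lines are group means, and the red triangle and square are the replicate 2 libraries of *Apoe*-/-*Il27ra*-/- LT-HSC. The E2F targets lie at 5635 to 9138 CPM in HPC-1 and at 2725 to 4877 CPM in the 15 other LT-HSC libraries.

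Markers of other cells moved with the cell type as well. Granulocyte and monocyte markers summed to 30.6 to 8348 CPM (median 55.2) in LT-HSC and 2472 to 7394 CPM (median 5633) in HPC-1, and 1 of 11 rose and 6 fell; *Mpo* was the most abundant in all HPC-1 libraries, *Prtn3* in 14 of 17 LT-HSC libraries, and *Ctsg* was at 0 counts in 10 and *Elane* in 8 LT-HSC libraries. *Mpo* fell from 4799 to 4.71 CPM as medians of HPC-1 and LT-HSC. *S100a9* was the one that rose, a log2 difference of 3.03 (SE 1.19, adjusted p = 0.0497) with 12 of 17 above, and without both replicate 2 libraries 0 rose. The highest granulocyte and monocyte sum in LT-HSC was then 1385 CPM, below every HPC-1 library. Megakaryocyte markers summed to 128 to 2418 CPM (median 1170.0) in LT-HSC and 66.3 to 167 CPM (median 118) in HPC-1, and to 856 CPM or more in LT-HSC without both replicate 2 libraries, above every HPC-1 library; all 7 rose, *Vwf* by 6.59 (SE 0.464, adjusted p = 7.81e-11) with 17 of 17 above, and 6 or 7 were detected in each LT-HSC library with *Ppbp* at 0 counts in 4. Erythroid markers summed to 313 to 1576 CPM (median 491) in LT-HSC and 225 to 567 CPM (median 361) in HPC-1, with 4 of 8 up, 1 down (*Tfrc*) and *Car2* most abundant in 16 LT-HSC libraries. Endothelial and stromal markers summed to 85.9 to 195 CPM (median 135) in LT-HSC and 147 to 212 CPM (median 192) in HPC-1, with 5 of 8 up and 1 down, *Pecam1* most abundant throughout and *Cdh5* at 0 counts in 6 LT-HSC and 11 HPC-1 libraries. B lymphoid markers were low, at 6.97 to 20.3 CPM (median 12.2) in LT-HSC and 2.73 to 20.6 CPM (median 14.1) in HPC-1, with 0 of 2 tested called and *Cd79b* most abundant. T lymphoid markers were low too, at 1.29 to 14.7 CPM (median 6.75) in LT-HSC and 0.869 to 15.6 CPM (median 8.95) in HPC-1, with 1 of 3 tested down (*Cd4*) and *Cd3e* at 0 counts in 12 and 16. The part of these markers in the differences between the cell types was not tested.

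The next question was whether Ang II infusion changed the members within a genotype. The response of *Apoe*-/- LT-HSC was not tested, because their PBS group held 1 library. For the same reason no genotype was tested against *Apoe*-/- LT-HSC after PBS. In the 5 comparisons of Ang II with PBS that were run edgeR called 0 members and 0 genes in all (0%). DESeq2 and limma-voom called 0 members, limma-voom called 0 genes, and DESeq2 called 0 genes in LT-HSC *Apoe*-/-*Il27ra*+/-, 1 in LT-HSC *Apoe*-/-*Il27ra*-/- and, in HPC-1, 1 each in *Apoe*-/- and *Apoe*-/-*Il27ra*-/- and 4 in *Apoe*-/-*Il27ra*+/-. The share of all genes at an unadjusted p under 0.05 is given beside each. In LT-HSC *Apoe*-/-*Il27ra*+/- it was 806 (4.93%) of 16365 and held 0 members, and in LT-HSC *Apoe*-/-*Il27ra*-/- it was 150 (0.917%) and held 1 member, *Rb1*. After PBS *Rb1* was at 30.8, 29.2 and 40.0 CPM in LT-HSC *Apoe*-/-*Il27ra*-/- and after Ang II at 48.8, 64.7, 51.5 and 37.7 CPM. The Ang II libraries lay higher in 3 of 4 than the highest PBS library, and the log2 fold change was 0.59 (SE 0.259, adjusted p = 1). Without both replicate 2 libraries 0 genes were called, 873 (5.39%) of 16205 in *Apoe*-/-*Il27ra*+/- and 172 (1.06%) in *Apoe*-/-*Il27ra*-/- were at an unadjusted p under 0.05, and *Rb1* was at 0.35 (SE 0.284, adjusted p = 1). In *Apoe*-/-*Il27ra*+/- the member below that unadjusted level was then *Ccna2*, at 75.8, 106 and 76.9 CPM after PBS and 56.6, 44.2, 68.4 and 69.8 CPM after Ang II, every Ang II library below every PBS library, a log2 difference of −0.54 (SE 0.210, adjusted p = 0.875) and −0.54 (SE 0.375, adjusted p = 0.994) over all libraries, which became −0.36 (SE 0.421) without replicate 2 of PBS *Apoe*-/-*Il27ra*+/-.

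In HPC-1 the unadjusted share was 420 (3.18%) of 13199 genes in *Apoe*-/-, 519 (3.93%) for *Apoe*-/-*Il27ra*+/- and 244 (1.85%) for *Apoe*-/-*Il27ra*-/-, with 1, 2 and 0 members. In *Apoe*-/- the member was *Ccnd1*, at 22.0 and 9.11 CPM after PBS and 28.1, 28.2 and 43.3 CPM after Ang II. All 3 Ang II libraries lay above both PBS libraries, and the log2 fold change was 1.12 (SE 0.438, adjusted p = 1). It depended on the PBS libraries, at 1.86 (SE 0.575) without replicate 1 and 0.59 (SE 0.516) without replicate 2. In *Apoe*-/-*Il27ra*+/- the members were *Ccna2* and *Ccnd3*. *Ccna2* was at 105, 156 and 147 CPM after PBS and 96.9, 108, 72.1 and 89.5 CPM after Ang II, higher in 1 Ang II library than in the lowest PBS library, a log2 difference of −0.58 (SE 0.202, adjusted p = 1). *Ccnd3* was at 119, 97.2 and 109.8 CPM after PBS and 58.2, 89.0, 42.6 and 113 CPM after Ang II, with overlap, a log2 difference of −0.52 (SE 0.230, adjusted p = 1), and it was −0.33 (SE 0.209) without replicate 3 of Ang II. In *Apoe*-/-*Il27ra*-/- no member reached that level and *Ccna2* was at 102, 145 and 136 CPM after PBS and 116, 168, 190.4 and 111 CPM after Ang II. None of these passed the adjustment over all genes.

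Whether the response to Ang II differed between *Apoe*-/-*Il27ra*-/- and *Apoe*-/-*Il27ra*+/- was tested by the interaction term. In LT-HSC edgeR called 0 members and 0 genes (0%), with 414 (2.53%) of 16365 genes and 0 members at an unadjusted p under 0.05, and 212 (1.31%) of 16205 and 0 members without both replicate 2 libraries. In HPC-1 edgeR called 0 members and 0 genes (0%), with 169 (1.28%) of 13199 genes at that unadjusted level. DESeq2 and limma-voom called 0 members and 0 genes in both. The 1 member at that level in HPC-1 was *Ccna2*, whose response in *Apoe*-/-*Il27ra*-/- minus that in *Apoe*-/-*Il27ra*+/- was 0.77 (SE 0.286, adjusted p = 1) on the log2 scale. Its level after Ang II was below PBS in 3 of 4 *Apoe*-/-*Il27ra*+/- libraries when each is set against the lowest PBS library, while the *Apoe*-/-*Il27ra*-/- libraries of both infusions overlapped.

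Genotype was compared within each infusion. In LT-HSC after Ang II, *Apoe*-/-*Il27ra*-/- and *Apoe*-/-*Il27ra*+/- were each set against the same 2 *Apoe*-/- libraries, so these comparisons share their controls and are given side by side. In *Apoe*-/-*Il27ra*-/- against *Apoe*-/- 1.69% of 16365 genes were called and 2896 (17.7%) were at an unadjusted p under 0.05, and in *Apoe*-/-*Il27ra*+/- against *Apoe*-/- 0.831% were called and 2563 (15.7%) were at that unadjusted level. edgeR, DESeq2 and limma-voom called 0 members in either, and in edgeR 2 members (*Cdk4* and *Cdk2*) and 1 (*Cdk2*) were at the unadjusted level. The median over all genes tested was 0.14 and 0.09 in that order, and the fold changes below are printed without subtracting it. Without both replicate 2 libraries 4.4% and 2.2% of 16205 genes were called, and 3388 (20.9%) and 2967 (18.3%) were at the unadjusted level, 3 members (*Cdk4*, *Cdk6* and *Cdk2*) and 2 (*Cdk4* and *Cdk2*) among them, with 0 members called and a median of 0.10 in *Apoe*-/-*Il27ra*-/- against *Apoe*-/-.

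*Cdk4* and *Cdk2* came nearest to a call, in opposite directions. *Cdk4* was at 67.4 and 84.1 (Ang II *Apoe*-/- LT-HSC), 97.6, 85.0, 131 and 118 (*Apoe*-/-*Il27ra*+/-) and 101, 112, 147 and 130.1 CPM (*Apoe*-/-*Il27ra*-/-). Every *Apoe*-/-*Il27ra*-/- and *Apoe*-/-*Il27ra*+/- library lay above both *Apoe*-/- libraries. Depth was uneven here: the *Apoe*-/- libraries held 2244419 and 2077699 counts. Replicates 3 and 4 of the other genotypes held 4512346 to 6861078 counts and had the higher *Cdk4* levels of their groups. Among the rest the lowest, at 85.0 CPM, lay close to the *Apoe*-/- library at 84.1 CPM. The log2 fold change of *Cdk4* was 0.71 (SE 0.287, adjusted p = 0.202) in *Apoe*-/-*Il27ra*-/- against *Apoe*-/- and 0.74 (SE 0.218, adjusted p = 0.0532) without both replicate 2 libraries, with 4 of 4 and 3 of 3 *Apoe*-/-*Il27ra*-/- libraries higher. In *Apoe*-/-*Il27ra*+/- against *Apoe*-/- it was 0.52 (SE 0.285, adjusted p = 0.394), with 4 of 4 higher. There it lay at 0.28 to 0.68 over the alternatives and with each library left out in turn. In *Apoe*-/-*Il27ra*-/- against *Apoe*-/- the same range was 0.47 to 0.87. *Cdk2* was at 81.9 and 92.6 (*Apoe*-/-), 75.4, 53.5, 60.4 and 62.1 (*Apoe*-/-*Il27ra*+/-) and 57.3, 72.9, 60.1 and 50.9 CPM (*Apoe*-/-*Il27ra*-/-), so that every *Apoe*-/-*Il27ra*+/- and *Apoe*-/-*Il27ra*-/- library lay below both *Apoe*-/- libraries. Its log2 fold change was −0.52 (SE 0.222, adjusted p = 0.225) in *Apoe*-/-*Il27ra*-/- against *Apoe*-/- and −0.63 (SE 0.211, adjusted p = 0.0846) without both replicate 2 libraries, and −0.47 (SE 0.222, adjusted p = 0.318) in *Apoe*-/-*Il27ra*+/- against *Apoe*-/-. *Cdk6* was lower in 3 of 4 *Apoe*-/-*Il27ra*-/- libraries than in both *Apoe*-/- libraries, at −0.47 (SE 0.441, adjusted p = 0.594) over all and −0.65 (SE 0.219, adjusted p = 0.0936) without both replicate 2 libraries. Its range was −0.65 to −0.24 over the alternatives and with each library left out in turn. None of the members passed.

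*Rb1* in these comparisons turned on which *Apoe*-/- library was kept. It was at 53.0 and 20.9 (Ang II *Apoe*-/- LT-HSC), 46.7, 47.2, 61.7 and 49.1 (*Apoe*-/-*Il27ra*+/-) and 48.8, 64.7, 51.5 and 37.7 CPM (*Apoe*-/-*Il27ra*-/-). Replicate 2 of *Apoe*-/- lay below all other libraries, and replicate 1 within the range of the other genotypes. Over all libraries the log2 fold change was 0.46 (SE 0.302, adjusted p = 0.44) in *Apoe*-/-*Il27ra*-/- against *Apoe*-/- and 0.48 (SE 0.302, adjusted p = 0.478) in *Apoe*-/-*Il27ra*+/- against *Apoe*-/-, and it was 0.31 (SE 0.292, adjusted p = 0.574) in *Apoe*-/-*Il27ra*-/- against *Apoe*-/- when both replicate 2 libraries of *Apoe*-/-*Il27ra*-/- were left out. Without replicate 1 of *Apoe*-/- it was 1.29 (adjusted p = 0.0387) and 1.31 (adjusted p = 0.0385), which passed with all 4 libraries above the 1 left in *Apoe*-/-, and without replicate 2 of *Apoe*-/- it was −0.06 and −0.05. A single *Apoe*-/- library is then assumed to vary like the other groups.

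The same *Apoe*-/- libraries carried markers of intestinal epithelium. This list summed to 495 and 534 CPM in Ang II *Apoe*-/- LT-HSC, with *Dmbt1* most abundant at 124 and 193 CPM and 16 and 14 of 18 genes detected, and to 325 CPM in the library labelled PBS *Apoe*-/-. In the other LT-HSC libraries it summed to 35.0 to 127 CPM, with *Krt18* most abundant and 4 to 12 genes detected, and *Fabp1* was at 0 counts in every library. In both *Apoe*-/-*Il27ra*-/- and *Apoe*-/-*Il27ra*+/- against *Apoe*-/- after Ang II 9 of 13 tested genes of this list fell and 0 rose. This count restates the sums and adds no separate result. Genes of the list such as *Agr2*, *Krt19*, *Krt20*, *Fabp2*, *Muc2* and *Tff3* had a median of 0 CPM in both cell types. Such a gene can pass the filter on low counts through the *Apoe*-/- libraries and can then hardly do other than fall against them. The list's part in the values of *Cdk4*, *Cdk2* and *Rb1* was not tested. In HPC-1 it summed to 117, 109 and 325 CPM in Ang II *Apoe*-/-, and replicate 3, which had the highest sum with *Dmbt1* at 70.2 CPM, was also the library with *Ccne1* at 56.8 and *Ccne2* at 72.8 CPM. Over the cell types 4 of 14 tested genes of the list rose in LT-HSC and 0 fell.

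From the other pathway lists, *Ccng2* and *Cdk11b* were called in LT-HSC after Ang II, and they are given for all 10 libraries. *Ccng2* was at 2.89 and 7.47 (*Apoe*-/-), 44.3, 21.3, 33.1 and 27.6 (*Apoe*-/-*Il27ra*+/-) and 34.4, 34.1, 25.8 and 34.4 CPM (*Apoe*-/-*Il27ra*-/-). Every *Apoe*-/-*Il27ra*+/- and *Apoe*-/-*Il27ra*-/- library lay above both *Apoe*-/- libraries, and *Ccng2* rose by 2.65 (SE 0.399, adjusted p = 0.00257) in *Apoe*-/-*Il27ra*-/- and 2.61 (SE 0.399, adjusted p = 0.00356) in *Apoe*-/-*Il27ra*+/-. *Cdk11b* was at 226 and 225 (*Apoe*-/-), 181, 153, 117 and 158 (*Apoe*-/-*Il27ra*+/-) and 133, 137, 99.2 and 123 CPM (*Apoe*-/-*Il27ra*-/-). It fell in *Apoe*-/-*Il27ra*-/- against *Apoe*-/-, a log2 difference of −0.86 (SE 0.202, adjusted p = 0.0368), with 4 of 4 libraries below both *Apoe*-/- libraries, and was not called in *Apoe*-/-*Il27ra*+/-. *Ccng2* in the library labelled PBS *Apoe*-/- LT-HSC was at 34.7 CPM, within the range of the other genotypes.

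More genes of the lists passed without both replicate 2 libraries. *Mcm3*, a helicase subunit, was at 441 and 552 (Ang II *Apoe*-/- LT-HSC), 355, 222, 229 and 312 (*Apoe*-/-*Il27ra*+/-) and 222, 489, 217 and 266 CPM (replicates 1 to 4 of *Apoe*-/-*Il27ra*-/-). All *Apoe*-/-*Il27ra*+/- libraries and all *Apoe*-/-*Il27ra*-/- libraries except replicate 2 lay below both *Apoe*-/- libraries. Without both replicate 2 libraries *Mcm3* fell, at −1.07 (SE 0.198, adjusted p = 0.00496) in *Apoe*-/-*Il27ra*-/- and −0.82 (SE 0.186, adjusted p = 0.0228) in *Apoe*-/-*Il27ra*+/- against *Apoe*-/-. *Mcm2* was at 263 and 267 (*Apoe*-/-) and 144, 312, 166 and 200.1 CPM (*Apoe*-/-*Il27ra*-/-), and fell by 0.64 (SE 0.175, adjusted p = 0.0386) in *Apoe*-/-*Il27ra*-/-, lower in 3 of 3. *Cdk7*, the kinase that activates other Cdks, was at 14.0 and 24.4 (*Apoe*-/-), 25.9, 37.4, 50.6 and 45.5 (*Apoe*-/-*Il27ra*+/-) and 41.1, 31.9, 41.1 and 47.1 CPM (*Apoe*-/-*Il27ra*-/-), above both *Apoe*-/- libraries in all. It rose by 1.17 (SE 0.299, adjusted p = 0.0266) in *Apoe*-/-*Il27ra*-/- and 1.08 (SE 0.288, adjusted p = 0.0477) in *Apoe*-/-*Il27ra*+/-. *Cks2* rose in *Apoe*-/-*Il27ra*+/- against *Apoe*-/-, a log2 difference of 1.47 (SE 0.361, adjusted p = 0.0353), from 12 and 6.47 CPM to 25.5, 19.5, 25.8 and 31.1 CPM. *Ccng2* and *Cdk11b* were called there too, at 2.61 (SE 0.407, adjusted p = 0.00161) and −0.93 (SE 0.194, adjusted p = 0.00934) in *Apoe*-/-*Il27ra*-/- against *Apoe*-/-, and *Ccng2* at 2.61 (SE 0.398, adjusted p = 0.000948) in *Apoe*-/-*Il27ra*+/- against *Apoe*-/-. These 2 comparisons rest on the *Apoe*-/- libraries with the intestinal markers, whose part was not tested.

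The contrast of *Apoe*-/-*Il27ra*-/- against *Apoe*-/-*Il27ra*+/- holds no *Apoe*-/- library. Those libraries still entered its scaling, filter and estimate of spread through the shared model. In this comparison edgeR, DESeq2 and limma-voom called 0 members in LT-HSC, and DESeq2 called 2 genes after Ang II and 1 after PBS, limma-voom 0. After Ang II edgeR called 0% of 16365 genes, with 426 (2.6%) at an unadjusted p under 0.05 and 0 members among them. *Cdk6* was at 436, 251, 277 and 280.4 (*Apoe*-/-*Il27ra*+/-) and 202, 275, 169 and 191 CPM (*Apoe*-/-*Il27ra*-/-), where 3 of 4 *Apoe*-/-*Il27ra*-/- libraries lay below every *Apoe*-/-*Il27ra*+/- library. Its log2 fold change was −0.56 (SE 0.366, adjusted p = 1) over all libraries and −0.74 (SE 0.188, adjusted p = 0.865) without both replicate 2 libraries, where 3 of 3 lay below. *Ccnd2* went the other way, at 229, 379, 353 and 350.3 (*Apoe*-/-*Il27ra*+/-) and 398, 282, 501 and 482 CPM (*Apoe*-/-*Il27ra*-/-), with 3 of 4 *Apoe*-/-*Il27ra*-/- libraries above every *Apoe*-/-*Il27ra*+/- library, a log2 difference of 0.34 (SE 0.191, adjusted p = 1) over all and 0.48 (SE 0.156, adjusted p = 1) without both replicate 2 libraries. Without replicate 1 of Ang II *Apoe*-/-*Il27ra*+/-, the highest of its group for *Cdk6* and the lowest for *Ccnd2*, *Cdk6* was at −0.36 (SE 0.381) and *Ccnd2* at 0.20 (SE 0.189). Without both replicate 2 libraries 404 (2.49%) of 16205 genes were at the unadjusted level, *Cdk6* and *Ccnd2* as the 2 members among them, and 0 were called.

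After PBS edgeR called 0% of 16365 genes in LT-HSC *Apoe*-/-*Il27ra*-/- against *Apoe*-/-*Il27ra*+/-, with 653 (3.99%) at an unadjusted p under 0.05. *Rb1* was the 1 member there, at 53.9, 53.9 and 49.8 (*Apoe*-/-*Il27ra*+/-) and 30.8, 29.2 and 40.0 CPM (*Apoe*-/-*Il27ra*-/-). All 3 *Apoe*-/-*Il27ra*-/- libraries lay below all 3 *Apoe*-/-*Il27ra*+/- libraries, a log2 difference of −0.65 (SE 0.274, adjusted p = 0.982), and −0.56 (SE 0.287, adjusted p = 1) without both replicate 2 libraries. With those left out 338 (2.09%) of 16205 genes reached the unadjusted level and 0 were called. The members among them were *Cdk6*, at 337, 236 and 198 (*Apoe*-/-*Il27ra*+/-) and 167, 615 and 193 CPM (*Apoe*-/-*Il27ra*-/-) with both remaining *Apoe*-/-*Il27ra*-/- libraries below every *Apoe*-/-*Il27ra*+/- library, a log2 difference of −0.51 (SE 0.224, adjusted p = 1), and *Ccna2*, a log2 difference of −0.67 (SE 0.258, adjusted p = 1), also lower in both. Over all libraries *Cdk6* was of the opposite sign, at 0.35 (SE 0.421, adjusted p = 0.988), and *Ccna2* was at −0.13 (SE 0.401, adjusted p = 0.995).

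In HPC-1 after Ang II edgeR called 0% of 13199 genes in each genotype comparison, and edgeR, DESeq2 and limma-voom called 0 members. DESeq2 and limma-voom called 0 genes in *Apoe*-/-*Il27ra*-/- against *Apoe*-/-*Il27ra*+/-, 2 and 13 in *Apoe*-/-*Il27ra*+/- against *Apoe*-/-, and 2 and 39 in *Apoe*-/-*Il27ra*-/- against *Apoe*-/-. The unadjusted share was 375 (2.84%) in *Apoe*-/-*Il27ra*-/- against *Apoe*-/-*Il27ra*+/-, 975 (7.39%) in *Apoe*-/-*Il27ra*+/- against *Apoe*-/- and 661 (5.01%) in *Apoe*-/-*Il27ra*-/- against *Apoe*-/-, comparisons that share groups in pairs. In *Apoe*-/-*Il27ra*-/- against *Apoe*-/-*Il27ra*+/- 3 members were at an unadjusted p under 0.05. *Ccna2* was at 96.9, 108, 72.1 and 89.5 (*Apoe*-/-*Il27ra*+/-) and 116, 168, 190.4 and 111 CPM (*Apoe*-/-*Il27ra*-/-), with every *Apoe*-/-*Il27ra*-/- library above every *Apoe*-/-*Il27ra*+/- library, a log2 difference of 0.68 (SE 0.189, adjusted p = 1) on the log2 scale. *Ccnd2* was at 194, 266, 239.8 and 223 (*Apoe*-/-*Il27ra*+/-) and 302, 289, 339.9 and 293 CPM (*Apoe*-/-*Il27ra*-/-), likewise without overlap, a log2 difference of 0.41 (SE 0.146, adjusted p = 1). *Ccnd1* was at 11.4, 40.6, 23.5 and 17.1 (*Apoe*-/-*Il27ra*+/-) and 30.6, 45.6, 37.4 and 35.4 CPM (*Apoe*-/-*Il27ra*-/-), with overlap, a log2 difference of 0.70 (SE 0.322, adjusted p = 1), and 1.10 (SE 0.320) without replicate 2 of *Apoe*-/-*Il27ra*+/-.

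In *Apoe*-/-*Il27ra*+/- against *Apoe*-/- *Ccnd2*, *Ccne1* and *Ccne2* were at that unadjusted level. *Ccnd2* was at 314, 327 and 249 CPM in *Apoe*-/-, 1 of them below the highest *Apoe*-/-*Il27ra*+/- library, a log2 difference of −0.39 (SE 0.157, adjusted p = 0.644). *Ccne1* was at 12.3, 14.6 and 56.8 (*Apoe*-/-) and 19.6, 12.3, 13 and 11.6 CPM (*Apoe*-/-*Il27ra*+/-), which overlapped but for replicate 3 of *Apoe*-/-, a log2 difference of −1.01 (SE 0.446, adjusted p = 0.649). *Ccne2* was at 36.5, 42.8 and 72.8 (*Apoe*-/-) and 35.9, 42.9, 16.1 and 29.6 CPM (*Apoe*-/-*Il27ra*+/-), with overlap, a log2 difference of −0.74 (SE 0.350, adjusted p = 0.666). In *Apoe*-/-*Il27ra*-/- against *Apoe*-/- the 1 member was *Ccne1*, at 13.3, 12.2, 14.5 and 19.1 CPM in *Apoe*-/-*Il27ra*-/-, a log2 difference of −0.94 (SE 0.441, adjusted p = 0.954), again with replicate 3 of *Apoe*-/- as the library outside the overlap. All of these E cyclin values moved with that library: without it *Ccne1* was at 0.05 (SE 0.401) in *Apoe*-/-*Il27ra*+/- and 0.12 (SE 0.398) in *Apoe*-/-*Il27ra*-/- against *Apoe*-/-, and *Ccne2* at −0.37 (SE 0.372) in *Apoe*-/-*Il27ra*+/- against *Apoe*-/-.

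In HPC-1 after PBS edgeR called 0.0152% of 13199 genes (2 genes) in *Apoe*-/-*Il27ra*-/- against *Apoe*-/-, and 0% in *Apoe*-/-*Il27ra*-/- against *Apoe*-/-*Il27ra*+/- and in *Apoe*-/-*Il27ra*+/- against *Apoe*-/-, with 0 members called in any of them by edgeR, DESeq2 or limma-voom. DESeq2 and limma-voom called 25 and 8 genes in *Apoe*-/-*Il27ra*-/- against *Apoe*-/-, 6 and 0 in *Apoe*-/-*Il27ra*+/- against *Apoe*-/-, and 0 in *Apoe*-/-*Il27ra*-/- against *Apoe*-/-*Il27ra*+/-. The unadjusted share was 865 (6.55%) in *Apoe*-/-*Il27ra*-/- against *Apoe*-/-, 151 (1.14%) in *Apoe*-/-*Il27ra*-/- against *Apoe*-/-*Il27ra*+/- and 631 (4.78%) in *Apoe*-/-*Il27ra*+/- against *Apoe*-/-, with 0, 0 and 1 members. The 1 was *Ccnd1*, at 22.0 and 9.11 (*Apoe*-/-) and 36.7, 27.0 and 30.5 CPM (*Apoe*-/-*Il27ra*+/-), every *Apoe*-/-*Il27ra*+/- library above both *Apoe*-/- libraries, a log2 difference of 1.02 (SE 0.435, adjusted p = 1). This used the same PBS *Apoe*-/- libraries as the Ang II comparison above, and was 1.78 (SE 0.573) without replicate 1 and 0.52 (SE 0.513) without replicate 2. Outside the cell type comparison and Ang II LT-HSC against *Apoe*-/-, 0 genes of any list were called in any comparison by edgeR.

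The spread between libraries of 1 group differed among the members. For *Cdk6* the SD within groups, on the log2 scale, was 0.53 in LT-HSC, 0.29 there without both replicate 2 libraries and 0.14 in HPC-1. It was thus the member with the least spread in HPC-1. For *Ccne1* it was 0.93 in LT-HSC, 0.78 there without both replicate 2 libraries and 0.60 in HPC-1, the widest of the members. For *Ccna2* it was 0.53 in LT-HSC, 0.33 there without both replicate 2 libraries and 0.28 in HPC-1, and for *Cdk4* 0.35 in LT-HSC, 0.25 there without both replicate 2 libraries and 0.32 in HPC-1. For the other members it was 0.24 to 0.59 in LT-HSC and 0.19 to 0.53 in HPC-1.

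Genes outside the members whose log2 CPM ran most alike were found by Pearson's r over all 36 libraries, which share cell type, group and depth, among 18013 genes. For *Cdk6* they were *Bex6* (r = 0.943), *Bin1* (0.937) and *Sh2d5* (0.934), for *Ccna2* *Aurkb* (r = 0.923), *Ube2c* (0.916) and *Spag5* (0.902) and for *Ccne2* *Hat1* (r = 0.905), *Brca1* (0.901) and *Mybl2* (0.897). For *Cdk4* they were *Cd47* (r = 0.883), *Pgls* (0.874) and *Glrx3* (0.872), for *Cdk2* *Baz1b* (r = 0.858), *Sf3b6* (0.853) and *Mcm3* (0.850) and for *Ccnd3* *Grb10* (r = 0.854), *Vcl* (0.849) and *Pitpnm2* (0.848). The highest r was lower for *Ccnd2*, with *Etv5* (r = 0.802), *Fndc4* (0.788) and *Epb41l4b* (0.785), and for *Ccne1*, with *Psmd8* (r = 0.791), *Psmc4* (0.763) and *Psmd14* (0.755). It was lowest for *Ccnd1*, with *Dip2a* (r = 0.763), *Rcor2* (0.750) and *Prickle1* (0.746), and *Rb1*, with *Grina* (r = 0.708), *Prkcb* (0.669) and *A730017L22Rik* (0.647). With 2 cell types in the libraries, such an r holds the difference between them.

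In mm10 (GRCm38) the D cyclin genes are *Ccnd1* (ENSMUSG00000070348, chromosome 7, 144929931 to 144939925, minus strand), *Ccnd2* (ENSMUSG00000000184, chromosome 6, 127125162 to 127152193, minus strand) and *Ccnd3* (ENSMUSG00000034165, chromosome 17, 47505051 to 47599691, plus strand). The kinase genes are *Cdk4* (ENSMUSG00000006728, chromosome 10, 127063534 to 127067920, plus strand), *Cdk6* (ENSMUSG00000040274, chromosome 5, 3341485 to 3531008, plus strand) and *Cdk2* (ENSMUSG00000025358, chromosome 10, 128697939 to 128705031, minus strand). The others are *Ccne1* (ENSMUSG00000002068, chromosome 7, 38097984 to 38107534, minus strand), *Ccne2* (ENSMUSG00000028212, chromosome 4, 11191351 to 11204779, plus strand), *Ccna2* (ENSMUSG00000027715, chromosome 3, 36564865 to 36572150, minus strand) and *Rb1* (ENSMUSG00000022105, chromosome 14, 73183673 to 73325822, minus strand). They lie on 8 chromosomes, with *Ccnd1* and *Ccne1* on chromosome 7 and *Cdk4* and *Cdk2* on chromosome 10.

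Some members share exon bases with a gene on the opposite strand, and although the library kit keeps strand, the sources used here do not state whether the counting did, so reads of such pairs may have been counted for either gene. *Ccne2* overlaps *Ints8*, whose counts over all libraries were 204% of those of *Ccne2*, by 609 bases. *Rb1* overlaps *Rcbtb2* by 488 bases (129%) and *Lpar6*, which lies inside it, by 408 (61.0%). *Ccna2* overlaps *Exosc9* (510 bases, 61.2%), *Ccnd1* overlaps *LTO1* (1100 bases, 49.7%) and *Ccnd3* overlaps *Bysl* (361 bases, 30.1%). *Cdk4* and *Tspan31* share 641 bases (11.5%), and *Cdk2* and *Pmel* 34 bases (0.977%). Antisense genes over *Ccnd2* and *Cdk6* had at most 12 counts in all, and *Ccne1* overlapped none. A processed pseudogene of *Ccnd3* held 26 counts over all libraries and one of *Cdk4* held 3, beside 17451 and 21536 counts of the members.

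Promoters of members were looked up because several members moved together between the cell types. The RefSeq table (GRCm38.p6) held promoters of 5 of 10 members, 6 promoters in all; *Ccnd1*, *Ccnd2*, *Ccne2*, *Ccna2* and *Rb1* are named only. In the 250 bases before the start, on both strands, the E-box CACGTG, a palindrome, was found in 2 of 6 member promoters, 4 times for *Cdk4* and 1 time for *Cdk6*, and in 6.02% of all 32851 promoters of that length. The E2F-type motif TTTCCCGC was found in 1 of 6, that of *Cdk2*, and in 0.895% of all, and TTTGGCGC in 0 of 6 and 0.417% of all, and the matches of different motifs lay in the promoters of different members. The stretches of the *Cdk4* promoter (chr10:127063285-127063533, plus strand) and the *Cdk6* promoter (chr5:3343643-3343731, plus strand) that hold no annotated exon are shown because these are the kinases of the D cyclins and both carry the E-box, which is in capitals; the *Cdk6* stretch lies within the annotated span of the gene, outside its exons. A match of letters is a description and does not show that a factor binds there.
*Cdk4*: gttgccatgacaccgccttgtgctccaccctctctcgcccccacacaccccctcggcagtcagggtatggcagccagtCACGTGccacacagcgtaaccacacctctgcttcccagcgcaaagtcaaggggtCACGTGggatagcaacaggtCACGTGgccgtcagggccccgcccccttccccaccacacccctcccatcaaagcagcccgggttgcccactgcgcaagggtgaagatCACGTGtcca
*Cdk6*: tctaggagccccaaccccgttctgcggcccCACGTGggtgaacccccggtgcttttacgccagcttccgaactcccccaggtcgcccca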

How the data were processed

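RNA-seq of sorted LT-HSC and HPC-1 from PBS-infused and Ang II-infused mice was used, as 1 table of 36 libraries. The values are RSEM expected counts of reads aligned to mm10, which the authors deposited without normalization; all were whole numbers (0 were not), so no rounding was needed. The submitters' processing notes name Bowtie2 and RSEM 1.2.31, while the study's methods name STAR, and the Ensembl release is not given in the sources used here. Symbols matched 37570 of 38887 identifiers. The counts were analysed in R 4.3.3 with edgeR 4.0.16: filterByExpr by group, TMM scaling, robust quasi-likelihood F-tests and Benjamini-Hochberg adjustment. The 6 groups of a cell type shared 1 model, and all 12 groups shared another for LT-HSC against HPC-1, whose contrast is the mean over 5 conditions, since PBS *Apoe*-/- had 1 LT-HSC library. That library stayed in the fit. Log2 CPM used a prior count of 2. Spread on the log2 scale is the SD within groups. The code was tested on simulated data.

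Named are the 10 members, *Il27ra*, the called genes of a list with the lowest adjusted p (up to 4 per direction and comparison), and per member the 3 genes most alike in log2 CPM. Lists covered RB and E2F partners, mitotic cyclins and *Cdk1*, transcriptional and other cyclins and Cdks, Cdk inhibitors, activators and destruction of cyclin-Cdk, E2F targets, and markers of LT-HSC, HPC-1, erythroid, granulocyte and monocyte, megakaryocyte, B and T lymphoid, intestinal epithelial and endothelial and stromal cells. The counts of 1 marker gene are not reported here. Members and lists were chosen with earlier results of these data known. *Tk1*, *Cdkn1b* and other genes named outside this rule were chosen after their values were seen.

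Alternatives were upper-quartile scaling, DESeq2 1.42.0, voom with sample weights (limma 3.58.1), no filter beyond a total of 1, a mean of at least 10 counts, no robust option, a fit over the compared groups, a replicate block, a covariate of 4 Y-linked genes, omission of both replicate 2 libraries of *Apoe*-/-*Il27ra*-/- LT-HSC, and each library left out in turn. Use of libraries under 4e+06 counts and omission of all *Apoe*-/- libraries were chosen after seeing the data. Exon lengths and overlaps came from GENCODE, near-copies from a transcript search with BLAST 2.17.0, promoters from RefSeq, and plots from Python 3.11.15 with matplotlib 3.10.9.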

Additional observations from a re-analysis of the deposited data

Results flagged for a closer look

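Of 40 pairs of a member and a group of 4 libraries, 4 held a library far from the other 3, with a gap to the nearest above the critical value of Dixon's test at 95%. Chance marks about 1 in 20 groups in this way. In Ang II *Apoe*-/-*Il27ra*+/- LT-HSC, *Cdk6* was at 436 CPM in replicate 1, beside 251 to 280.4 CPM in the others, and *Rb1* was at 61.7 CPM in replicate 3, beside 46.7 to 49.1 CPM. In Ang II *Apoe*-/-*Il27ra*-/- LT-HSC, *Ccne1* was at 28.1 CPM in replicate 2, beside 4.29 to 6.47 CPM, and *Ccne2* at 33.2 CPM in the same library, beside 8.51 to 12.4 CPM. That library is also the one with the high granulocyte and monocyte markers.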

How the results depend on the processing

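Between LT-HSC and HPC-1, 9 members were called in each alternative except the one without *Apoe*-/- libraries, chosen after seeing the data, which called 8 (*Ccne1* at −0.55, adjusted p = 0.0583, within a range of 0.00161 to 0.0583 over the alternatives), and with a library left out the count was 8 to 10. No member changed sign there in 44 settings, upper-quartile and DESeq2 scaling included. The fold change of *Cdk6* lay at −1.31 to −1.04 over the alternatives and that of *Rb1* at 0.17 to 0.28 (adjusted p 0.0581 to 0.435), or 0.04 to 0.31 with a library left out. In Ang II LT-HSC, *Apoe*-/-*Il27ra*-/- against *Apoe*-/- and *Apoe*-/-*Il27ra*+/- against *Apoe*-/- gave 0 members in each alternative and 0 to 1 with a library left out; the 1 was *Rb1* without replicate 1 of *Apoe*-/-, where 1 library was left in the group. In each other comparison within a cell type the count was 0 in every setting run. Of 170 member values in these 17 comparisons, 91 changed sign in some setting and 79 did not. With the replicate block 9 members were called between the cell types and 0 elsewhere. It is not stated that equal numbers mean paired libraries, and deviations of same-numbered libraries had r over 0.1 in 7 of 41 pairs in HPC-1, 8 of 27 in LT-HSC and 7 of 16 across the cell types, among them all 3 pairs of PBS *Apoe*-/-*Il27ra*-/- with PBS *Apoe*-/-*Il27ra*+/- in HPC-1. Depth limits *Ccne1* most, with a lowest count of 4. Libraries under 4e+06 counts alone could not be compared where a group kept fewer than 2.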
